A study of Mus musculus with 30 samples.

Results

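Described here are 32 genes of endoderm, gut and simple epithelia, chosen by name from the 54393 genes of the deposited expression table. By role they are 7 transcription factors of endoderm (Gata4, Gata6, Sox7, Sox17, Foxa1, Foxa2 and Hnf4a), 8 genes for secreted and lipoprotein products (Afp, Ttr, Apoa1, Apob, Trf, Rbp4, Habp2 and Nepn), and 4 genes of endocytic receptors and their adaptor (Dab2, Cubn, Amn and Lrp2). The others are 4 gut genes and related genes (Aqp8, Gkn1, Gkn2 and Ctsh), 4 keratins of simple epithelia (Krt7, Krt8, Krt18 and Krt19) and 5 junction and adhesion genes (Cldn4, Cldn6, Cldn7, Epcam and Cdh1). The names were picked with expression values of these same libraries in view, and which comparison was in view is not recorded. Counts over the genes are therefore descriptions of these libraries and support nothing on their own.

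Mouse CGR8 embryonic stem cells (ESC), day 8 embryoid bodies formed from them without LIF and with retinoic acid (EB8), and glutamatergic neuron cultures at 7 days in vitro (DIV7) were sampled in 4 edited lines and in the parental wild type (WT). Puf60_mEx5_HOM is labelled as lacking exon 5 of the splicing factor gene Puf60 on both alleles. Puf60_pEx5_HOM and Puf60_pEx5_HET include that exon constitutively from both alleles or from 1. Rbm38KO carries a deletion within Rbm38, which encodes an RNA-binding protein. The edited lines are clonal CRISPR-Cas9 derivatives of the same CGR8 cells. Each of the 15 combinations of line and stage has 2 libraries, A and B, so n = 2 for every group. The series text speaks of independent clones without saying which library came from which clone. A p-value here rests on how far libraries A and B of a group lie apart, pooled per gene or exon over all groups fitted. That spread may in part be technical, and groups in which a gene has no reads make it smaller.

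Endoderm is the germ layer of gut, liver and pancreas, and its extra-embryonic relatives, visceral and parietal endoderm, line the yolk sac. GATA, SOX and FOXA factors switch on its genes. Visceral endoderm secretes serum proteins and takes up nutrients through cubilin, amnionless and megalin with the adaptor DAB2, while parietal endoderm lays down a basement membrane of laminin and collagen IV. Keratins 8 and 18 pair into the filaments of simple epithelia, whose cells are joined by E-cadherin (Cdh1), EPCAM and claudins, and embryonic stem cells also carry E-cadherin.

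Expression was measured as exon-exon junction reads summed per gene and scaled to library size (CPM), of which 31 of the 32 genes have any, since Cldn4 has no intron in these data. The libraries held 23204150 to 38571969 such reads. A gene was tested if it reached 1 CPM in at least 2 of the 30 libraries, which 28 of the 32 genes did and Afp, Apoa1 and Apob did not. Fold changes are limma estimates ± SE on log2(CPM + 1), on which folds of genes near 0 come out too small. Calls needed a change of at least 2-fold and an adjusted p (Benjamini-Hochberg, over all 13938 genes tested) under 0.05. The authors' deposited table adds 1 RPKM value per group, which is scaled to gene length and serves to compare genes with each other. Comparisons of edited lines with WT at a stage share the same 2 WT libraries.

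The edits were visible in the reads. Inclusion of the 51-nt exon of Puf60 was 7.49% to 13% in the 6 Puf60_mEx5_HOM libraries, 93.2% to 99.0% in Puf60_pEx5_HOM, 49.2% to 64.9% in Puf60_pEx5_HET, 22.9% to 48.4% in Rbm38KO and 20.7% to 44.0% in WT, so the line labelled as lacking the exon was below WT and above 0. Rbm38 had 0 CPM in all 6 Rbm38KO libraries, against 4.98 to 96.2 CPM in the other 24. A list of 6 neuronal genes summed to 2340 to 3056 CPM at DIV7, 588 to 1516 CPM at EB8 and 62.2 to 102 CPM at ESC. At DIV7 the 2 WT libraries stood apart from each other: WT A was above WT B for Gata4, Gata6, Sox17, Foxa2, Habp2, Nepn, Dab2, Aqp8, Gkn1, Gkn2 and Ctsh, 11 of 11 genes grouped after their values were seen, with a median difference of 0.98 on the log2 scale. In Rbm38KO, B was above A for 11 of these 11 genes, with a median difference (A minus B) of -1.14, and in Puf60_pEx5_HET for 10 of the 11, with -0.68. The split was not particular to these genes. Of Krt8, Krt18, Krt19, Cldn6, Cldn7, Epcam and Cdh1, 7 of 7 were higher in WT A (median 0.64). In Rbm38KO and Puf60_pEx5_HET, 7 of 7 were higher in B (-0.62 and -0.96). In bulk RNA, fewer cells of a type and less RNA per cell cannot be told apart.

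The genes with the widest changes include 2 pairs of neighbours. Gkn1 and Gkn2, which encode gastrokines secreted by the stomach lining, start 22415 bp apart on chromosome 6 and are read in opposite directions. Krt8 and Krt18 start 23698 bp apart on chromosome 15, also in opposite directions. The sequence just before the start of each of these genes and of Aqp8, a water channel gene of gut and liver, is shown because the genes moved together or by the most. The windows are RefSeq sequence of build GRCm38.p6, given along the gene's strand and trimmed to lie before the start in both RefSeq and GENCODE: chr7:123462044-123462290 (+) for Aqp8, chr6:87350943-87351165 (-) for Gkn1, chr6:87373115-87373356 (+) for Gkn2, chr15:102004483-102004592 (-) for Krt8 and chr15:102027966-102028179 (+) for Krt18. Capitals mark matches on either strand to a GATA motif, a FOX motif or an E-box. The GATA motif was searched as AGATAA and also as the form TGATAA, then as the form AGATAG and lastly as the form TGATAG. The FOX motif searched was TGTTTAC and the E-box was CACCTG, and none of these strings overlapped in the windows shown.
Aqp8: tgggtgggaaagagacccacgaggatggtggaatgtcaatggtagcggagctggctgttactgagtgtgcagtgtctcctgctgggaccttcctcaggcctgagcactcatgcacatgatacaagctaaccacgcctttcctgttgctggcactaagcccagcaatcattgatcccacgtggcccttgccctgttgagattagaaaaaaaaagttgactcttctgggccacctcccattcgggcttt
Gkn1: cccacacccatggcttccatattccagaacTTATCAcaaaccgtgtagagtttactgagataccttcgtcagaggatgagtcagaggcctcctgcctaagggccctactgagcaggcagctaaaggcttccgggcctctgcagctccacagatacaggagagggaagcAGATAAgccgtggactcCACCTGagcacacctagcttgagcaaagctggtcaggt
Gkn2: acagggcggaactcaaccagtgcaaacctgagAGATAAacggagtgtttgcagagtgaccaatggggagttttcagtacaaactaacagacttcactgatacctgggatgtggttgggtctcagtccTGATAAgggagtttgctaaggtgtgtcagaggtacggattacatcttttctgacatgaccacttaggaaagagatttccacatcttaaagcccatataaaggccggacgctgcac
Krt8: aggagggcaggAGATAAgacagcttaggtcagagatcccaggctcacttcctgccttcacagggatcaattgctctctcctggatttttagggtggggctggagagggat
Krt18: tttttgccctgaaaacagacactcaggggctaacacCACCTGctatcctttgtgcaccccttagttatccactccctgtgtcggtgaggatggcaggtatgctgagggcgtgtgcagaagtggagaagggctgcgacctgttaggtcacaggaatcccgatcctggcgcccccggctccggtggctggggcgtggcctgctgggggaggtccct

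The Gkn1 window held 2 GATA matches and 1 E-box, the Gkn2 window 2 GATA matches, the Krt8 window 1 GATA match and the Krt18 window 1 E-box, and the Aqp8 window held none of these letters. Over windows of the same position, 24.7% of all RefSeq promoters hold a GATA match for the Gkn1 window, 26.1% for Gkn2, 26.4% for Aqp8 and 14.3% for Krt8. Over the full 250 bases, 10 of 29 promoters of the 23 genes with an entry held a GATA match, 3 a FOX match and 13 an E-box, against 26.5%, 3.2% and 17.2% of all 32851 promoters. A match is a string of letters and not a measured binding site.

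In WT most of the genes were either lowest or highest at ESC. The endoderm factors other than Hnf4a, the 4 gut genes, Dab2, Ttr, Rbp4, Habp2 and Nepn had their lowest WT mean at ESC, whereas the 4 junction genes with spliced reads, Krt8, Krt18, Krt19, Lrp2 and Trf had their highest mean there. Krt7 had its highest mean at EB8, Cubn and Hnf4a had theirs at DIV7, and the ESC and DIV7 libraries of Amn overlapped. At EB8 against ESC, 12 of the 28 tested genes rose and 9 fell, in a step in which 39.9% of all genes tested were called (21.7% higher and 18.2% lower). At DIV7 against EB8, 11 rose and 8 fell beside 30.3% of all genes (17.6% higher and 12.7% lower), and at DIV7 against ESC 13 rose and 10 fell beside 55.1% (29.7% higher and 25.4% lower). These shares of all genes are high, and the stage course of the 28 is read here only as a description.

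Gata4, a zinc-finger factor of primitive endoderm and heart, had 0.881 and 0.671 CPM at ESC, 4.13 and 3.48 CPM at EB8 and 15.9 and 6.14 CPM at DIV7 in WT. Each stage lay above the one before in both libraries (EB8 against ESC 1.43 ± 0.36, adjusted p = 0.00138; DIV7 against EB8 1.20 ± 0.36, adjusted p = 0.0064). Without DIV7 WT A the second step was 0.58 with an adjusted p of 0.182. Gata6, Sox17 and Foxa2 also rose at EB8 against ESC, by 1.56, 1.12 and 1.60. The rise of Sox17 was not called without ESC WT A (0.99) or without EB8 WT A (1.04). Sox7, a SOX factor of extra-embryonic endoderm and endothelium, peaked at EB8: it rose by 2.20 ± 0.17 over ESC and fell by 1.98 at DIV7 against EB8. Hnf4a, a nuclear receptor of liver and visceral endoderm, stayed between 0.456 and 1.29 CPM in WT and was not called in any step.

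Rbp4, the retinol carrier of serum, had 1.15 and 1.55 CPM at ESC, 12.1 and 12.9 CPM at EB8 and 8.21 and 4.53 CPM at DIV7 in WT. Its rise at EB8 was 2.53 ± 0.26 (adjusted p = 1.16e-08), and the difference at DIV7 against EB8 of -0.92 stayed under the 2-fold threshold. Trf, the serum iron carrier transferrin, ran the other way, with 8.68 and 11.4 CPM at ESC, 3.70 and 6.74 CPM at EB8 and 0.25 and 0.552 CPM at DIV7. Ttr, the thyroid hormone carrier transthyretin, and Nepn had no read in any of the 10 ESC libraries, and were at least 70.9-fold and 41.9-fold higher in WT at DIV7 than at ESC, with 3 reads over the ESC group taken as the floor. The serum genes Afp, Apoa1 and Apob stayed at or under 1.00 CPM in all 30 libraries.

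Aqp8 had 0.0339 and 0 CPM at ESC, 5.15 and 4.02 CPM at EB8 and 98.3 and 45.3 CPM at DIV7 in WT, and the fit gave 2.45 ± 0.53 at EB8 against ESC and 3.61 ± 0.53 at DIV7 against EB8. Gkn1 and Gkn2 had no read in any of the 10 ESC libraries and were at least 297-fold and 528-fold higher in WT at DIV7 than at ESC. On the authors' length-scaled RPKM, Aqp8 (52.2) and Gkn2 (45.0) stood first among the 32 genes in WT at DIV7, followed by Sox17 (19.1), Krt19 (11.7) and Krt8 (11.1).

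Cdh1 had 850 and 950 CPM at ESC, 42.2 and 50.7 CPM at EB8 and 12.6 and 11.3 CPM at DIV7 in WT, a fall at both steps (-4.25 ± 0.45 and -1.87 ± 0.45). Lrp2, the large endocytic receptor megalin, had 194 and 176 CPM at ESC, 9.54 and 9.88 CPM at EB8 and 21.4 and 6.99 CPM at DIV7, and fell at EB8 against ESC (-4.12 ± 0.40, adjusted p = 3.55e-08). Krt8 had 226 and 379 CPM at ESC, 27.2 and 34.5 CPM at EB8 and 37.3 and 19.8 CPM at DIV7. It fell at EB8 (-3.21 ± 0.46) and its DIV7 and EB8 libraries overlapped. At ESC the authors' RPKM for WT was highest for Cdh1 (210), Epcam (150), Krt8 (132), Krt18 (106) and Krt19 (96.8), and Cldn4 stood at 69.1. Scaling to total reads instead put the median log2 fold change of all genes at 0.42 for EB8 against ESC (0.03 as scaled here) and at 0.32 for DIV7 against ESC (0.04 as scaled here), and changed the sign of 1 of the 28 genes in each. Total scaling put that median at -0.11 for DIV7 against EB8 (0.02 as scaled here), and quantile scaling put it at -0.17 for DIV7 against ESC.

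**Figure D1:**
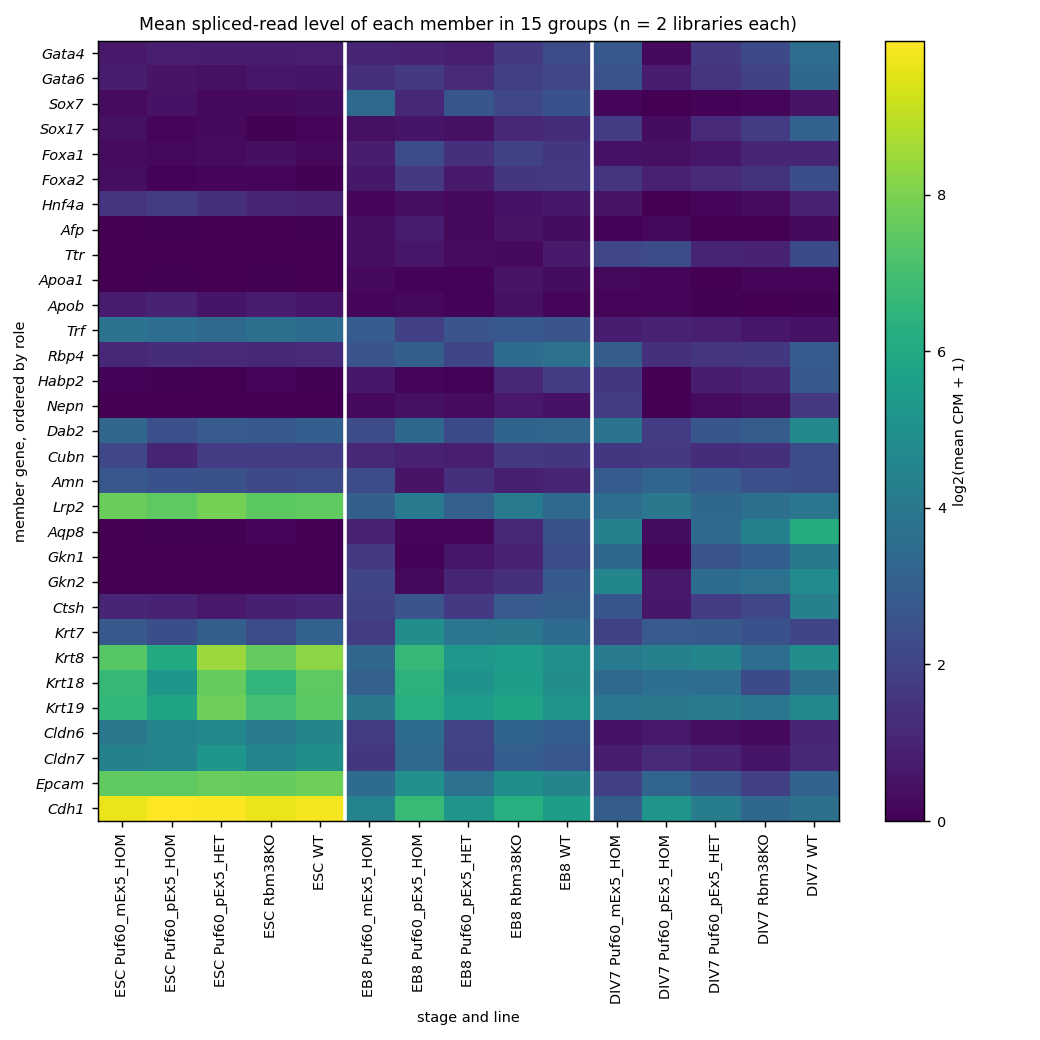
Heat map of the 31 genes with spliced reads, in rows by role, over the 15 combinations of stage and line in columns; colour is log2(mean CPM + 1), brighter for higher levels, n = 2 libraries each. The junction genes, Krt8, Krt18 and Krt19 are brightest at ESC, and Aqp8, Gkn1 and Gkn2 are at or near 0 there and highest at DIV7 outside Puf60_pEx5_HOM.

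At DIV7 many of the endoderm genes and all 4 gut genes were lower in Puf60_pEx5_HOM than in WT. Of the 28 genes tested 12 fell and 0 rose, beside 2.57% of all genes called (0.868% higher and 1.7% lower), and all 4 gut genes, 4 of 7 transcription factors, 3 of 5 tested secreted genes and Dab2 were among them. The median log2 fold change was -0.66 over the 28 genes and 0.04 over all genes. Over the same 28 genes it was -0.89 in Puf60_pEx5_HET, -1.16 in Rbm38KO and -0.61 in Puf60_mEx5_HOM. Called or not, 21 of the 28 were lower than WT in Puf60_pEx5_HOM, 24 in Puf60_pEx5_HET, 25 in Rbm38KO and 24 in Puf60_mEx5_HOM. Lower values were thus not particular to Puf60_pEx5_HOM, and all 4 lines are set against the same WT pair. In Puf60_pEx5_HET 11 fell and 0 rose, beside 0.574% of all genes (0.043% higher and 0.531% lower), and in Rbm38KO 5 fell and 0 rose, beside 0.301% (0.00717% higher and 0.294% lower). In Puf60_mEx5_HOM only Ctsh fell, beside 0.395% of all genes called (0.179% higher and 0.215% lower).

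Aqp8 had 19.4 and 19.2 CPM in Puf60_mEx5_HOM, 0.461 and 0.0753 in Puf60_pEx5_HOM, 4.02 and 16 in Puf60_pEx5_HET, 7.32 and 32.2 in Rbm38KO, and 98.3 and 45.3 in WT. Every edited library lay below both WT libraries, and the 2 Puf60_pEx5_HOM libraries, with 13 and 2 reads, lay far below all others (-5.76 ± 0.53 against WT, adjusted p = 3.01e-06). The change was also called in Puf60_pEx5_HET (-2.88 ± 0.53, adjusted p = 0.00967). The authors' RPKM for Aqp8 was 0.19 in Puf60_pEx5_HOM and 52.2 in WT.

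Gkn1 had 9.41 and 9.46 CPM in Puf60_mEx5_HOM, 0.177 and 0.0753 in Puf60_pEx5_HOM, 3.90 and 6.26 in Puf60_pEx5_HET, 3.97 and 9.75 in Rbm38KO, and 18.8 and 12 in WT. Gkn2 had 20.0 and 26.2 CPM in Puf60_mEx5_HOM, 0.532 and 0.640 in Puf60_pEx5_HOM, 7.92 and 13.1 in Puf60_pEx5_HET, 5.95 and 18.6 in Rbm38KO, and 30.6 and 24.1 in WT. Both gastrokine genes were near 0 in Puf60_pEx5_HOM and below WT in both libraries (-3.83 ± 0.33 and -4.15 ± 0.40). Gkn1 also fell in Puf60_pEx5_HET (-1.43 ± 0.33), and in Puf60_mEx5_HOM Gkn2 overlapped WT. Ctsh, which encodes the lysosomal protease cathepsin H, had 4.98 and 5.81 CPM in Puf60_mEx5_HOM, 0.638 and 0.452 in Puf60_pEx5_HOM, 0.922 and 3.75 in Puf60_pEx5_HET, 1.94 and 4.71 in Rbm38KO, and 24.7 and 14.1 in WT. It is the 1 gene of the 28 called lower in all 4 edited lines: -1.63 ± 0.36 (adjusted p = 0.029) in Puf60_mEx5_HOM, -3.68 ± 0.36 (3.01e-06) in Puf60_pEx5_HOM, -2.70 ± 0.36 (0.000424) in Puf60_pEx5_HET and -2.26 ± 0.36 (0.00336) in Rbm38KO. These 4 comparisons rest on the same WT pair.

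Gata4 had 5.53 and 5.85 CPM in Puf60_mEx5_HOM, 0.142 and 0.264 in Puf60_pEx5_HOM, 1.47 and 2.96 in Puf60_pEx5_HET, 1.46 and 5.81 in Rbm38KO, and 15.9 and 6.14 in WT. Gata6 had 4.94 and 4.63 CPM in Puf60_mEx5_HOM, 0.851 and 0.603 in Puf60_pEx5_HOM, 1.47 and 2.12 in Puf60_pEx5_HET, 1.17 and 4.47 in Rbm38KO, and 12.2 and 5.70 in WT. Both GATA factors were lowest in Puf60_pEx5_HOM and highest in WT A, and both fell in Puf60_pEx5_HOM (-3.19 ± 0.36 and -2.45 ± 0.34; adjusted p = 1.84e-05 and 0.000111). Sox17 had 2.91 and 1.84 CPM in Puf60_mEx5_HOM, 0.461 and 0.0753 in Puf60_pEx5_HOM, 0.754 and 1.90 in Puf60_pEx5_HET, 0.607 and 4.01 in Rbm38KO, and 11.4 and 3.97 in WT. Foxa2, a pioneer factor of endoderm and floor plate, had 2.07 and 1.69 CPM in Puf60_mEx5_HOM, 1.21 and 0.527 in Puf60_pEx5_HOM, 1.09 and 1.59 in Puf60_pEx5_HET, 1.46 and 2.09 in Rbm38KO, and 5.93 and 2.50 in WT. Sox17 (-2.65 ± 0.41) and Foxa2 (-1.42 ± 0.24) fell in Puf60_pEx5_HOM, and in Rbm38KO Sox17 overlapped WT. In Puf60_pEx5_HET all 4 factors fell, Gata4 by 1.81 ± 0.36, Gata6 by 1.76 ± 0.34, Sox17 by 1.80 ± 0.41 and Foxa2 by 1.08 ± 0.24, and in Rbm38KO none was called.

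Among the secreted genes, Habp2, which encodes a serum protease that binds hyaluronan, had 2.15 and 1.84 CPM in Puf60_mEx5_HOM, 0 and 0 in Puf60_pEx5_HOM, 0.0838 and 1.37 in Puf60_pEx5_HET, 0.283 and 1.63 in Rbm38KO, and 8.61 and 3.57 in WT. Nepn, which encodes the small proteoglycan nephrocan, had 2.32 and 2.67 CPM in Puf60_mEx5_HOM, 0 and 0 in Puf60_pEx5_HOM, 0.251 and 0.190 in Puf60_pEx5_HET, 0.364 and 0.390 in Rbm38KO, and 2.50 and 1.84 in WT. With no read in either library, Habp2, which also fell in Puf60_pEx5_HET (-2.05 ± 0.37) and Rbm38KO (-1.85 ± 0.37), was at least 112-fold and Nepn at least 39.7-fold lower in Puf60_pEx5_HOM than in WT, taking 3 reads over the group as the floor. Nepn also fell in Puf60_pEx5_HET (-1.37 ± 0.12, adjusted p = 6.43e-07) and Rbm38KO (-1.20 ± 0.12, adjusted p = 4.62e-06) while its Puf60_mEx5_HOM and WT libraries overlapped. Rbp4 had 7.89 and 5.45 CPM in Puf60_mEx5_HOM, 2.06 and 1.13 in Puf60_pEx5_HOM, 1.68 and 2.20 in Puf60_pEx5_HET, 1.54 and 2.59 in Rbm38KO, and 8.21 and 4.53 in WT. It fell in Puf60_pEx5_HOM (-1.48 ± 0.26), Puf60_pEx5_HET (-1.29 ± 0.26) and Rbm38KO (-1.24 ± 0.26).

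Dab2 had 12.5 and 13.1 CPM in Puf60_mEx5_HOM, 2.20 and 2.60 in Puf60_pEx5_HOM, 3.48 and 7.17 in Puf60_pEx5_HET, 3.72 and 9.43 in Rbm38KO, and 33.7 and 15.5 in WT. All edited libraries lay below both WT libraries, and the fall was called in Puf60_pEx5_HOM (-2.82 ± 0.33, adjusted p = 2.5e-05), Puf60_pEx5_HET (-1.98 ± 0.33) and Rbm38KO (-1.77 ± 0.33). The receptors it serves did not pass the test at DIV7: Cubn ranged over 1.05 to 2.38 CPM in the edited lines and had 5.46 and 2.43 CPM in WT, and Lrp2 ranged over 6.81 to 16.5 CPM in the edited lines against 21.4 and 6.99 CPM in WT. Amn, the membrane anchor of cubilin, had 8.93 and 8.25 CPM in Puf60_pEx5_HOM against 3.07 and 4.71 CPM in WT, and the authors' deposited table lists it as higher (log2 fold change 1.06, FDR = 0.0216).

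**Figure D2:**
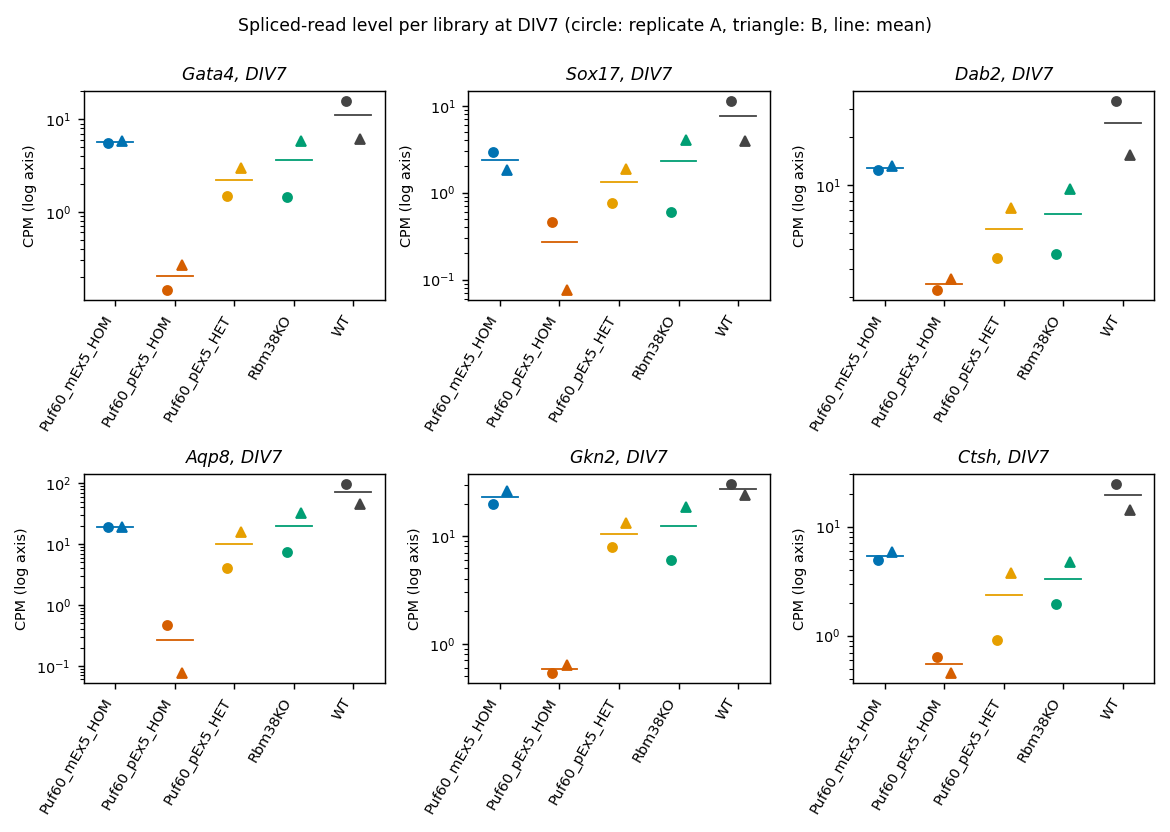
CPM (log axis) of Gata4, Sox17, Dab2, Aqp8, Gkn2 and Ctsh in each DIV7 library by line, with edited lines left of WT; circles are library A, triangles library B and lines the mean. Both Puf60_pEx5_HOM libraries lie below both WT libraries in every panel, for Aqp8 at 0.461 and 0.0753 against 98.3 and 45.3 CPM.

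How far these calls rest on single libraries and on the fit differed between lines. A fit to the DIV7 libraries alone takes the spread from that stage only. It called 11 of the 28 genes in Puf60_pEx5_HOM (Sox17 was lost), 1 in Puf60_pEx5_HET, and 0 in Rbm38KO and in Puf60_mEx5_HOM. In Rbm38KO and Puf60_mEx5_HOM, 20 and 12 had an unadjusted p under 0.05 in the fit over all libraries. Without WT A, 11 of the 12 calls in Puf60_pEx5_HOM remained, with Foxa2 at -0.93, under the 2-fold threshold. The same omission left 2 of 11 calls in Puf60_pEx5_HET, 1 of 5 in Rbm38KO and 0 of 1 in Puf60_mEx5_HOM, and without WT B these counts were 13, 12 and 8. Without Puf60_pEx5_HET A 3 calls remained, without Rbm38KO A 1, without Rbm38KO B 11 were made, and without either Puf60_mEx5_HOM library the Ctsh call was lost. The authors' deposited table, at FDR under 0.05 and 2-fold, lists 14 of the 32 genes lower and 3 higher in Puf60_pEx5_HOM beside 2.93% of all its genes, adding Hnf4a (log2 fold change -3.03) and Sox7 (-3.70) to the lower ones and Cldn4 (1.77) and Cdh1 (1.51) to the higher ones. It lists 4 lower in Puf60_pEx5_HET, Hnf4a (-3.01) among them, beside 0.268% of its genes and none in Puf60_mEx5_HOM or Rbm38KO.

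Other endoderm lists, none of whose genes are among the 32, were set beside these values. Of 13 tested genes of primitive and parietal endoderm, 11 fell and 0 rose in Puf60_pEx5_HOM at DIV7 (median -2.35, against 0.04 over all genes). Srgn, a secretory granule proteoglycan, averaged 0.676 CPM in Puf60_pEx5_HOM and 41.2 CPM in WT (-4.56 ± 0.49), and Col4a1, a basement membrane collagen, fell by 3.79 ± 0.37. Sums over 13 genes of the list, none at 0 reads, are given from the lower to the higher library of a group. At DIV7 they were 4014 to 5529 CPM in Puf60_mEx5_HOM, 772 to 1166 in Puf60_pEx5_HOM and 2018 to 2260 in Puf60_pEx5_HET. In Rbm38KO they were 2064 to 3552 CPM and in WT 4131 to 9446 CPM. WT had 1653 to 1787 CPM at ESC and 2120 to 2633 CPM at EB8. The Puf60_pEx5_HOM sums at DIV7 thus lay below those of WT stem cells. The list is not read here as a measure of endoderm alone. Of 12 tested visceral endoderm genes 4 fell and 2 rose in Puf60_pEx5_HOM, and the largest changes were rises of Lefty1 (2.26 ± 0.49) and Tdh (2.23 ± 0.54). Summed over 16 genes, this list ran over 1526 to 1533 CPM in WT at ESC. At DIV7 it ran over 98.3 to 103 CPM in Puf60_pEx5_HOM and 152 to 186 in WT. With its highest sums in stem cells, it is not read here as a measure of visceral endoderm. Genes of definitive endoderm and gut had a median of 0.02 over 9 tested genes, and the list summed to 5.65 to 10.9 CPM over all DIV7 libraries.

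Markers of other cell types moved in the same comparison. Of 9 tested pluripotency genes, 6 rose and 1 fell in Puf60_pEx5_HOM at DIV7, led by Pou5f1 (56.8 CPM on average in Puf60_pEx5_HOM and 6.11 CPM in WT, 3.05 ± 0.84) and Dppa5a (2.96 ± 0.78). With none of the 9 at 0 reads, their sum was 45.9 to 47.5 CPM in Puf60_mEx5_HOM, 171 to 249 in Puf60_pEx5_HOM, 71.1 to 165 in Puf60_pEx5_HET, 50.9 to 75.7 in Rbm38KO and 67.8 to 68.5 in WT, against 3994 to 5880 CPM at ESC. Of 11 tested endothelial genes 3 fell and 1 rose, with Flt1 (-2.85 ± 0.42) and Cdh5 (-2.05 ± 0.52) changed the most. The 6 neuronal genes had a median of -0.07. What part these lists have in the changes of the 32 genes was not tested.

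The keratins and junction genes are not among the genes limma called at DIV7 against WT. Krt8 had 16.9 and 15.3 CPM in Puf60_mEx5_HOM, 16.6 and 22.4 in Puf60_pEx5_HOM, 14.8 and 29.6 in Puf60_pEx5_HET, 6.43 and 15.8 in Rbm38KO, and 37.3 and 19.8 in WT. Cdh1 had 7.47 and 5.89 CPM in Puf60_mEx5_HOM, 20.4 and 49.1 in Puf60_pEx5_HOM, 7.88 and 27.6 in Puf60_pEx5_HET, 6.84 and 11 in Rbm38KO, and 12.6 and 11.3 in WT. Puf60_pEx5_HOM thus lay above WT in both libraries for Cdh1 and overlapped it for Krt8, with neither called by limma. Ttr had 0.355 and 7.65 CPM in the 2 Puf60_pEx5_HOM libraries against 5.00 and 2.32 CPM in WT, and was not called.

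At EB8, Krt7, Krt8, Krt18, Cldn6, Cldn7 and 5 endoderm and gut genes were lower in Puf60_mEx5_HOM than in WT. Of the 28 genes 10 fell and 1 rose, beside 1.64% of all genes called (1.18% higher and 0.466% lower), with a median of -0.99 over the 28 and 0.02 over all genes. In Puf60_pEx5_HOM 2 of the 4 keratins rose and 3 of the 4 gut genes fell: in all 2 rose and 6 fell, beside 1.66% of all genes (0.215% higher and 1.44% lower). In Puf60_pEx5_HET 2 fell and 0 rose, beside 0.115% (0.0215% higher and 0.0933% lower). In Rbm38KO limma called 0 of the 28 genes, beside 0.043% of all genes (0.00717% higher and 0.0359% lower), while 4 had an unadjusted p under 0.05 and the authors' table lists none.

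Krt8 had 10.6 and 7.21 CPM in Puf60_mEx5_HOM, 84.7 and 114 in Puf60_pEx5_HOM, 20.4 and 57.4 in Puf60_pEx5_HET, 36.5 and 52.6 in Rbm38KO, and 27.2 and 34.5 in WT. It was below WT in both Puf60_mEx5_HOM libraries (-1.70 ± 0.46, adjusted p = 0.0165) and above WT in both Puf60_pEx5_HOM libraries (1.65 ± 0.46, adjusted p = 0.0279). The call of the rise was lost on leaving out any of the 4 libraries compared, with changes of 1.44 to 1.87. That of the fall was lost without WT A, WT B or Puf60_mEx5_HOM B (-1.86, -1.53 and -1.45). Krt18 had 9.29 and 5.45 CPM in Puf60_mEx5_HOM, 68.0 and 97.9 in Puf60_pEx5_HOM, 18.4 and 48.0 in Puf60_pEx5_HET, 37.1 and 57.5 in Rbm38KO, and 26.3 and 32.3 in WT. Krt7 had 3.30 and 1.47 CPM in Puf60_mEx5_HOM, 26.4 and 32.5 in Puf60_pEx5_HOM, 7.86 and 20.4 in Puf60_pEx5_HET, 12.7 and 16.8 in Rbm38KO, and 8.88 and 11.6 in WT. Krt18 and Krt7 kept the same order of lines: both fell in Puf60_mEx5_HOM (-1.89 ± 0.47 and -1.78 ± 0.37), and in Puf60_pEx5_HOM Krt7 rose (1.44 ± 0.37, adjusted p = 0.0148). The fall of Krt18 was not called without WT A, WT B or Puf60_mEx5_HOM B (-2.03, -1.75 and -1.55). That of Krt7 was not called without Puf60_mEx5_HOM B (-1.38), nor its rise without WT A (1.27) or Puf60_pEx5_HOM B (1.29). Krt19 had 18.9 and 10.5 CPM in Puf60_mEx5_HOM, 59.0 and 92.1 in Puf60_pEx5_HOM and 24.7 and 44.0 in WT, with groups that did not overlap and no call by limma, while the authors' deposited table lists it as lower in Puf60_mEx5_HOM (log2 fold change -1.31, FDR = 0.0492).

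Cldn6 had 2.80 and 1.89 CPM in Puf60_mEx5_HOM, 7.48 and 13.5 in Puf60_pEx5_HOM and 7.12 and 6.68 in WT, and Cldn7 had 2.15 and 1.83, 8.68 and 11.4, and 5.87 and 5.26 CPM in the same order. Both claudin genes, which encode tight junction proteins, fell in Puf60_mEx5_HOM (-1.25 ± 0.26, adjusted p = 0.0026, and -1.14 ± 0.22, adjusted p = 0.000981). Epcam had 11 and 9.04 CPM in Puf60_mEx5_HOM, 26 and 37.4 in Puf60_pEx5_HOM and 20.4 and 24.5 in WT, and Cdh1 had 24.8 and 17.2, 79.2 and 130, and 42.2 and 50.7 CPM in these groups. For both, Puf60_mEx5_HOM lay below WT and Puf60_pEx5_HOM above it without a call. Cldn4, which has only an RPKM value per group, stood at 4.86 in Puf60_mEx5_HOM, 30.4 in Puf60_pEx5_HOM and 13.3 in WT, and the authors' deposited table lists it as lower in Puf60_mEx5_HOM (log2 fold change -1.50, FDR = 0.0378).

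Of the endoderm factors, Gata4 had 1.25 and 0.849 CPM in Puf60_mEx5_HOM, 0.995 and 0.953 in Puf60_pEx5_HOM, 0.692 and 0.850 in Puf60_pEx5_HET, 1.60 and 2.72 in Rbm38KO, and 4.13 and 3.48 in WT. It was lower than WT in every edited library, and the fall was called in Puf60_mEx5_HOM (-1.23 ± 0.36) and Puf60_pEx5_HOM (-1.28 ± 0.36). Sox7 had 9.13 and 10.2 CPM in Puf60_mEx5_HOM, 1.63 and 0.756 in Puf60_pEx5_HOM and 3.99 and 5.55 in WT, and Foxa2 had 0.654 and 0.490, 2.02 and 2.33, and 2.82 and 1.67 CPM in these groups. Sox7 lay above WT in both Puf60_mEx5_HOM libraries, under the 2-fold threshold (0.90 ± 0.17), and fell in Puf60_pEx5_HOM (-1.41 ± 0.17, adjusted p = 8.24e-06). Foxa2 fell in Puf60_mEx5_HOM (-1.02 ± 0.24). Foxa1, the paralogue of Foxa2, had 1.06 and 0.326 CPM in Puf60_mEx5_HOM, 3.74 and 4.11 in Puf60_pEx5_HOM and 2.56 and 1.56 in WT, and limma did not call it against WT, while the authors' deposited table lists it as lower in Puf60_mEx5_HOM (log2 fold change -2.01, FDR = 0.00153).

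Among the secreted and endocytic genes, Rbp4 had 5.55 and 4.93 CPM in Puf60_mEx5_HOM, 6.69 and 7.63 in Puf60_pEx5_HOM, 3.49 and 3.01 in Puf60_pEx5_HET, 7.64 and 12.8 in Rbm38KO, and 12.1 and 12.9 in WT. It fell in Puf60_mEx5_HOM (-1.12 ± 0.26) and Puf60_pEx5_HET (-1.67 ± 0.26, adjusted p = 0.00307). Habp2 had 0.374 and 0.718 CPM in Puf60_mEx5_HOM, 0.121 and 0.164 in Puf60_pEx5_HOM and 2.36 and 2.26 in WT, and fell in both (-1.11 ± 0.37 and -1.54 ± 0.37). Amn had 4.52 and 3.43 CPM in Puf60_mEx5_HOM, 0.482 and 0.395 in Puf60_pEx5_HOM, 0.843 and 2.19 in Puf60_pEx5_HET, 0.788 and 0.853 in Rbm38KO, and 0.911 and 1.19 in WT. It is the 1 gene that rose in Puf60_mEx5_HOM (1.27 ± 0.21, adjusted p = 0.000272), with both of its libraries above all 8 others at EB8.

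Aqp8, Gkn1 and Gkn2 were already low in Puf60_pEx5_HOM at EB8. Aqp8 had 0.685 and 1.14 CPM in Puf60_mEx5_HOM, 0.181 and 0 in Puf60_pEx5_HOM, 0.15 and 0.131 in Puf60_pEx5_HET, 0.496 and 1.98 in Rbm38KO, and 5.15 and 4.02 in WT. Gkn1 had 2.93 and 1.44 CPM in Puf60_mEx5_HOM, 0.0603 and 0.0658 in Puf60_pEx5_HOM, 0.933 and 0.131 in Puf60_pEx5_HET, 0.788 and 1.16 in Rbm38KO, and 5.58 and 2.52 in WT. Gkn2 had 4.11 and 2.38 CPM in Puf60_mEx5_HOM, 0.0302 and 0.263 in Puf60_pEx5_HOM, 1.69 and 0.425 in Puf60_pEx5_HET, 0.846 and 2.28 in Rbm38KO, and 8.17 and 4.13 in WT. All 3 fell in Puf60_pEx5_HOM (-2.35 ± 0.53, -2.18 ± 0.33 and -2.59 ± 0.40), and Gkn1 fell in Puf60_pEx5_HET (-1.70 ± 0.33). Ctsh had 3.21 and 2.48 CPM in Puf60_mEx5_HOM, 4.79 and 5.62 in Puf60_pEx5_HOM and 7.43 and 6.88 in WT, and fell in Puf60_mEx5_HOM (-1.09 ± 0.36, adjusted p = 0.0418).

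The EB8 counts moved with single libraries. The calls of Gata4 and Habp2 in both homozygous lines, and of Ctsh in Puf60_mEx5_HOM, were lost on leaving out any of the 4 libraries compared. In Puf60_mEx5_HOM the count of 11 was 5 without WT A, 8 without WT B, 9 without Puf60_mEx5_HOM A and 2 without Puf60_mEx5_HOM B, where Amn and Cldn7 were the genes still called. In Puf60_pEx5_HOM the count of 8 was 4 without WT A, 5 without WT B, 5 without Puf60_pEx5_HOM A and 3 without Puf60_pEx5_HOM B, where Sox7, Gkn1 and Gkn2 were still called. The 2 calls of Puf60_pEx5_HET were lost without WT A and without Puf60_pEx5_HET B. The authors' deposited table lists 9 of the 32 genes lower and 1 higher in Puf60_mEx5_HOM beside 2.38% of its genes, and 4 lower and 3 higher in Puf60_pEx5_HOM beside 2.42%. In Puf60_mEx5_HOM these are not all the same genes. Gata4 (authors' FDR = 0.0954), Cldn6 (0.123), Ctsh (0.25) and Habp2 (0.34) were called lower by limma and are not listed there. At the same stage Rbfox3, a neuronal splicing factor, rose in Puf60_mEx5_HOM (1.02 ± 0.19) and fell in Puf60_pEx5_HOM (-1.15 ± 0.19), and 6 neuronal genes, none at 0 reads, summed to 1311 to 1516 CPM in Puf60_mEx5_HOM, 588 to 680 in Puf60_pEx5_HOM and 881 to 995 in WT. What part this has in the epithelial values was not tested.

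At ESC the 3 keratins that stem cells carry most were lower in Puf60_pEx5_HOM than in WT, and they were the only genes of the 28 called against WT at that stage (0 rose and 3 fell, beside 2.47% of all genes, 0.969% higher and 1.5% lower). Krt8 had 136 and 190 CPM in Puf60_mEx5_HOM, 60.9 and 68.7 in Puf60_pEx5_HOM, 314 and 392 in Puf60_pEx5_HET, 175 and 202 in Rbm38KO, and 226 and 379 in WT. Krt18 had 77.4 and 124 CPM in Puf60_mEx5_HOM, 39.3 and 36.7 in Puf60_pEx5_HOM, 170 and 217 in Puf60_pEx5_HET, 87.3 and 99.9 in Rbm38KO, and 128 and 227 in WT. Krt19 had 71.9 and 118 CPM in Puf60_mEx5_HOM, 46.1 and 63.3 in Puf60_pEx5_HOM, 165 and 262 in Puf60_pEx5_HET, 109 and 144 in Rbm38KO, and 109 and 231 in WT. For all 3 the Puf60_pEx5_HOM libraries were the lowest of the 10, and the changes were -2.16 ± 0.46 for Krt8 (adjusted p = 0.0031), -2.14 ± 0.47 for Krt18 and -1.54 ± 0.47 for Krt19. WT B was well above WT A, and without it no keratin was called (-1.79 for Krt8, adjusted p = 0.0567; -1.73 for Krt18, 0.0703; -1.0 for Krt19, 0.317). The junction genes stayed close, with Cdh1 at 1017 and 978 CPM in Puf60_pEx5_HOM against 850 and 950 CPM in WT. In Puf60_mEx5_HOM, Puf60_pEx5_HET and Rbm38KO limma called 0 of the 28 genes at ESC, beside 0.0789% of all genes in Puf60_mEx5_HOM (0.0143% higher and 0.0646% lower), 0.0359% in Puf60_pEx5_HET (0.0215% higher and 0.0143% lower) and 0.0359% in Rbm38KO (all lower), while 3, 0 and 1 had an unadjusted p under 0.05 and the authors' table lists none.

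**Figure D3:**
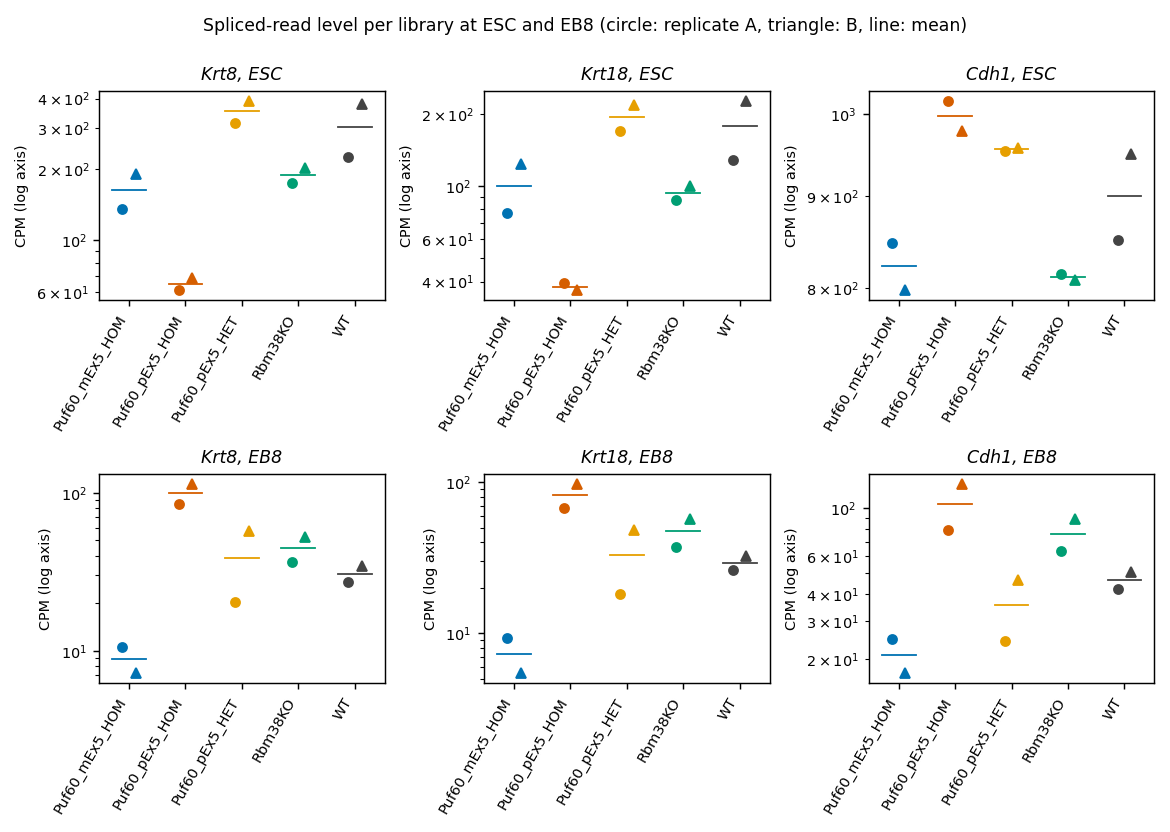
CPM (log axis) of Krt8, Krt18 and Cdh1 in each library by line at ESC (top) and EB8 (bottom), with edited lines left of WT; circles are library A, triangles library B and lines the mean. The Puf60_pEx5_HOM libraries are the lowest for both keratins at ESC and the highest at EB8, and Cdh1 lies between 798 and 1017 CPM in all ESC libraries.

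The 2 homozygous Puf60 lines were compared with each other, so no WT library enters the difference itself. Its SE and p-value use a spread pooled over all 30 libraries, those of WT included. At EB8 16 of the 28 genes differed, 4 higher and 12 lower in Puf60_mEx5_HOM than in Puf60_pEx5_HOM, beside 9.99% of all genes (6.95% higher and 3.05% lower). All 4 keratins and all 4 tested junction genes were lower in Puf60_mEx5_HOM: Krt8 (-3.35 ± 0.46, adjusted p = 1.53e-05), Krt18 (-3.34 ± 0.47), Krt7 (-3.22 ± 0.37), Krt19 (-2.31 ± 0.47), Cdh1 (-2.24 ± 0.45), Cldn7 (-1.88 ± 0.22), Cldn6 (-1.74 ± 0.26) and Epcam (-1.55 ± 0.46). Sox7 (2.31 ± 0.17, adjusted p = 6.89e-10), Gkn2 (1.87 ± 0.40), Amn (1.78 ± 0.21) and Gkn1 (1.54 ± 0.33) were higher. Foxa1 (-1.57 ± 0.22), Foxa2 (-1.02 ± 0.24), Lrp2 and Dab2 were lower: Lrp2 had 7.38 and 6.95 CPM in Puf60_mEx5_HOM against 14.4 and 19.1 CPM in Puf60_pEx5_HOM, and Dab2 had 4.11 and 3.92 CPM against 8.71 and 9.53 CPM. Sox7 and both FOXA genes thus stood on opposite sides. On leaving out 1 library, the calls of Dab2 and Lrp2 were lost under each such omission. That of Epcam was lost without Puf60_mEx5_HOM B (-1.42) and without Puf60_pEx5_HOM B (-1.30). Foxa2 stood under the 2-fold threshold in the same omissions (-0.94 in both).

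A list of 23 tested epithelial genes outside the 32 was read beside these. At EB8 12 of them were lower and 0 higher in Puf60_mEx5_HOM than in Puf60_pEx5_HOM (median -1.07, against 0.01 over all genes), led by Cdh3, the P-cadherin gene (3.48 CPM on average in Puf60_mEx5_HOM and 24.7 CPM in Puf60_pEx5_HOM), and Prss8, a membrane protease gene (0.970 and 7.13 CPM in the same order). Of 6 neuronal genes 5 were higher, led by Rbfox3 (2.17 ± 0.19) and Snap25 (1.78 ± 0.17). All 23 epithelial genes fell in WT at EB8 against ESC.

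At DIV7 12 of the 28 genes differed between the homozygous lines, 11 higher and 1 lower in Puf60_mEx5_HOM, beside 2.78% of all genes (1.54% higher and 1.25% lower). The gut genes were again the furthest apart, with Aqp8 higher by 4.02 ± 0.53 (adjusted p = 8.4e-05), Gkn2 by 3.91 ± 0.40, Gkn1 by 3.21 ± 0.33 and Ctsh by 2.05 ± 0.36. Gata4 (2.48 ± 0.36), Dab2 (2.03 ± 0.33), Gata6 (1.75 ± 0.34), Rbp4 (1.57 ± 0.26) and Sox17 (1.41 ± 0.41) were also higher. Habp2 and Nepn were at least 36.4-fold and 45.6-fold higher in Puf60_mEx5_HOM, since Puf60_pEx5_HOM had no read. Cdh1 was lower (-2.10 ± 0.45), a call lost without Puf60_pEx5_HOM B (-1.49, adjusted p = 0.0588), and Sox17 was not called without Puf60_mEx5_HOM A or without Puf60_pEx5_HOM B. At ESC 1 gene differed, beside 2.47% of all genes (1.59% higher and 0.875% lower): Cubn had 3.07 and 3.6 CPM in Puf60_mEx5_HOM against 0.828 and 1.25 CPM in Puf60_pEx5_HOM (1.09 ± 0.28, adjusted p = 0.00765), a call lost without Puf60_mEx5_HOM B or Puf60_pEx5_HOM A. With the replicate letter as a block 3 genes were called at ESC, and 4 with scaling to total reads.

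**Figure D4:**
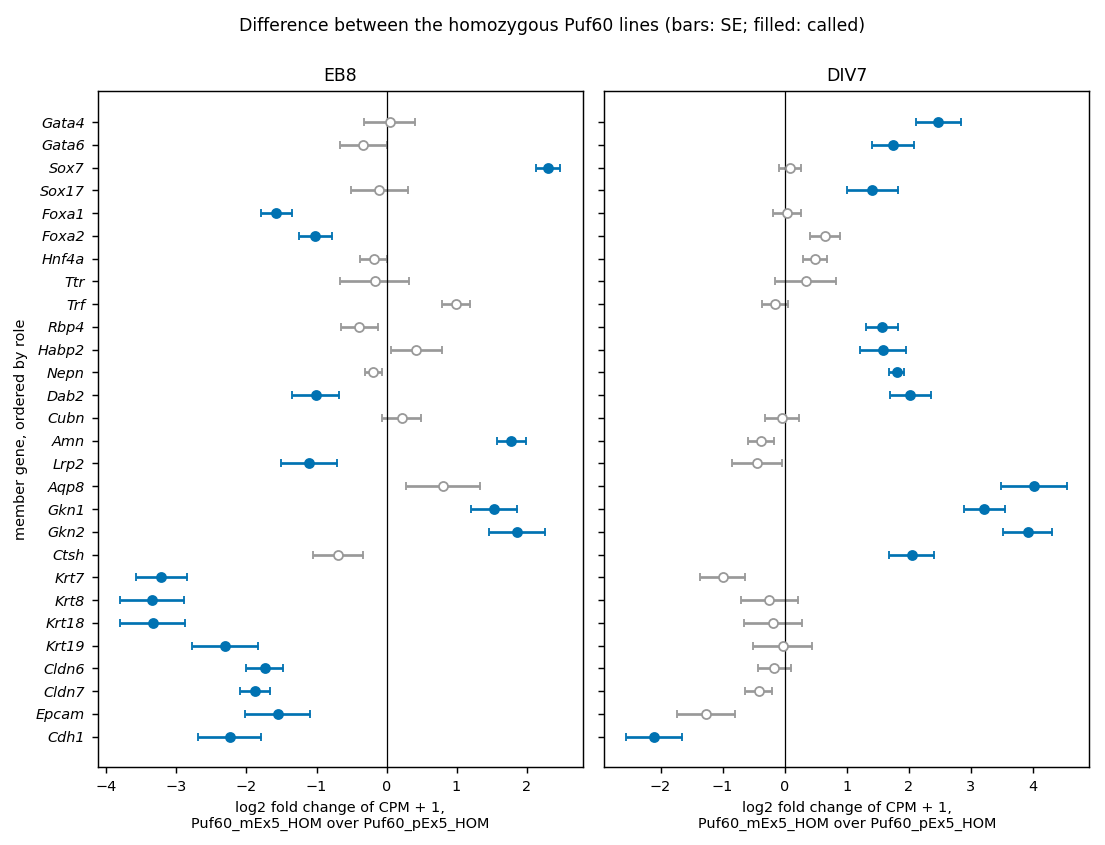
Log2 fold change (Puf60_mEx5_HOM over Puf60_pEx5_HOM, limma on log2(CPM + 1)) of the 28 tested genes at EB8 (left) and DIV7 (right), with bars of 1 SE; filled points are called. At EB8 the keratins and junction genes lie left of 0 and Sox7 and Amn right of it, and at DIV7 Aqp8, Gkn1 and Gkn2 lie furthest to the right.

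Many of the genes, though not all, kept close company by level over the 15 group means of log2(CPM + 1). These means share lines and stages and are given without a test. Gkn1 and Gkn2 had the highest correlation (r = 0.995), Epcam was closest to Cdh1 (0.990) and Krt8 to Krt19 (0.979). Within the 11 endoderm and gut genes named above r ran over 0.50 to 1.00, within 7 keratin and junction genes (Krt8, Krt18, Krt19, Cldn6, Cldn7, Epcam and Cdh1) over 0.88 to 0.99, and between the 2 sets over -0.85 to 0.09. These ranges follow in part from the choice of sets, since the 11 were grouped after their values were seen. Both sets leave out genes that run differently. Krt7 had 0.16 to 0.45 with the 7, and the closest r of Amn, Cubn and Sox7 to any other tested gene of the 32 was 0.36, 0.54 and 0.62. Over the 30 libraries, the genes outside the 32 most like Gata4 were B4galnt2 (r = 0.974), Fxyd3 (0.949), S100g (0.947), Slco2a1 (0.946) and Srgn (0.942). For Sox17 they were S100g (0.971), Fxyd3, B4galnt2, Klb and Nostrin, and for Foxa2 Hkdc1 (0.932), Cxcl12, Tgfbr3, Col4a2 and Vtn. Those most like Krt8 were Marveld2 (0.938), Dsg2, 2200002D01Rik, Anxa3 and Itgb1, and those most like Cdh1 were Esrp1 (0.996), Mnd1, Eif4ebp1, Plp2 and Lama5. Cubn had no close companion, with Fst (0.753), F3, Aifm3, Adcy7 and Ghr at the top.

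Splicing was a readout that the choice of genes by expression did not use. Alternative exons with at least 10 reads in every library fitted were few: 4 exons of Dab2, Cldn6 and Epcam at ESC, 3 at EB8, 2 at DIV7 and 3 over the WT stages. The 654-nt exon of Dab2 (mm10 chr15:6429296-6429949, + strand) lies inside the coding sequence, keeps the reading frame and is in 3 of 11 coding transcripts. It separates the long p96 form of DAB2 from the shorter p67 form. The others were a 63-nt coding exon of Dab2 (44.5% to 100% inclusion at ESC on 13 to 49 reads), a 64-nt UTR exon of Cldn6 (68.8% to 79.2% at ESC) and a 437-nt exon of Epcam (93.2% to 97.0% at ESC).

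Inclusion of the 654-nt Dab2 exon (percent spliced in, PSI) fell through the WT stages, with 90.2% and 83.3% at ESC, 58.0% and 65.4% at EB8 and 33.3% and 41.0% at DIV7. Each stage lay below the one before in both libraries, with a difference of -25.1 points at EB8 (limma on log ratios, adjusted p = 0.0229) and of -24.5 points at DIV7 (adjusted p = 0.0106), in fits that called 23.3% and 29.8% of all exons tested. DIV7 against ESC differed by -49.6 points (adjusted p = 0.000194, beside 44.6% of exons). Leaving out either EB8 WT library left 1 of these 3 calls. Over all lines the exon ran over 63.0% to 92.3% at ESC (median 84.5%), 58.0% to 100% at EB8 (78.6%) and 30.2% to 77.8% at DIV7 (55.5%), on 15 to 130 reads per library. The fall from ESC to EB8 was not seen in every line. Puf60_pEx5_HOM had 71.4% and 63.0%, then 92.6% and 78.6%, and Puf60_pEx5_HET 89.7% and 92.3%, then 92.6% and 100%. Puf60_mEx5_HOM had 85.7% and 91.2%, then 82.6% and 78.6%, and Rbm38KO 83.3% and 75.0%, then 75.5% and 73.0%. All edited libraries at EB8 lay above both WT libraries.

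No edited line was called against WT for any of these exons, nor were the homozygous lines against each other, although in the same fits up to 6.18% of all exons were called against WT and up to 16.9% between the homozygous lines. Unadjusted p was under 0.05 in 4 of 20 such comparisons at ESC, 2 of 15 at EB8 and 0 of 10 at DIV7. The widest difference was at EB8, where the Dab2 exon stood at 92.6% and 100% in Puf60_pEx5_HET against 58.0% and 65.4% in WT (adjusted p = 0.529). Nearest to a call was the same exon at EB8 in Puf60_pEx5_HOM, with 92.6% and 78.6% (23.9 points against WT, adjusted p = 0.0516). In this line its difference from WT at ESC had the other sign (-19.6 points, adjusted p = 0.159). At ESC it stood at 85.7% and 91.2% in Puf60_mEx5_HOM against 71.4% and 63.0% in Puf60_pEx5_HOM (21.3 points, adjusted p = 0.0543). These values are from the fit without a replicate block. With the replicate letter as a block 1 of the 20 exon comparisons at ESC was called, and with at least 20 reads required 1 was called at ESC and 1 at EB8.

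**Figure D5:**
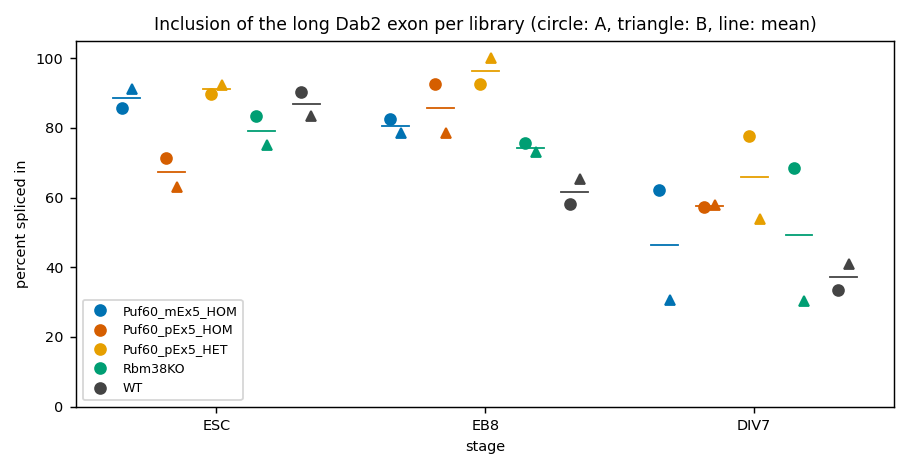
PSI (percent of junction reads that include the exon) of the 654-nt exon of Dab2 in each library by stage and line, with edited lines left of WT; circles are library A, triangles library B and lines the mean. In WT both libraries fall from stage to stage, and at DIV7 they lie at 33.3% and 41.0%.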

How the data were processed

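PolyA RNA was sequenced with a stranded TruSeq protocol modified for longer inserts, per the labels' protocols. The authors' deposited expression table gives 1 RPKM value per group and, for each edited line against WT, a log2 fold change, a p-value and an FDR; Salmon 0.14.1 and build mm10 are named in the submitters' processing notes. The deposited splicing table gives percent inclusion per library and a quality score string per library that holds junction read counts, per the file headers. A second splicing table with values per group was not used here. The strand used in counting is not given in the sources used here.

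Exon-exon junction reads of 189118 introns were summed per gene (25626 genes), scaled by median of ratios to CPM and fitted as log2(CPM + 1) with limma 3.58.1 (trend and robust) in R 4.3.3 over all 30 libraries, with 15 group means and 15 residual degrees of freedom. Spliced reads per library were 28375996 to 38571969 (ESC), 26152711 to 30675968 (EB8) and 23204150 to 28655479 (DIV7). Genes with 1 CPM in 2 libraries were tested, and calls needed a Benjamini-Hochberg adjusted p under 0.05 and a 2-fold change. Exons with 10 reads in every library fitted were tested with limma on log2 inclusion to exclusion ratios, weighted by reads and overdispersion, and called at an adjusted p under 0.05 and 10 percentage points. Both procedures were tested on simulated data with independent libraries. The expression simulation changed only genes well above the 1 CPM filter. It therefore does not speak to genes near that filter or to the splits between libraries A and B. Genes with intronless transcripts have no junction reads, and introns that are retained more lower a gene's sum.

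The 32 genes and the other lists were chosen with earlier results of these data known. Per-library values are given for each gene called in a comparison of an edited line with WT or of the homozygous lines, and for the WT course for the gene of highest mean level in each role. Other scalings, a pseudocount of 0.5, other filters, the replicate letter as a block, fits to the compared stages alone and omission of each library were tried. Reads from Habp2, Trf, Dab2, Sox17, Gata6, Hnf4a, Krt7, Krt8, Cubn and Afp may include those of overlapping annotated genes. Gene positions are from GENCODE M21 (GRCm38).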

Additional observations from a re-analysis of the deposited data

Results flagged for a closer look

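For 27 values the step of an edited line from 1 stage to the next differed from the WT step in a test of that difference (limma interaction, n = 2 libraries per group, log2 scale, line step minus WT step). The WT libraries enter every one of them, and no explanation was tested.

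In Puf60_pEx5_HOM 10 of the 28 genes differed at EB8 against ESC, beside 4.26% of all genes. The keratins had higher EB8 than ESC values in Puf60_pEx5_HOM, while Krt8, Krt18 and Krt19 fell in WT, and the differences between the steps were 3.81 for Krt8 (adjusted p = 0.000869), 3.59 for Krt18 (0.00173), 2.67 for Krt19 (0.0139) and 2.15 for Krt7 (0.00985), and Cldn7 differed by 1.25 (0.00909). Gkn2 (-2.59, 0.00478), Aqp8 (-2.38, 0.0492), Gkn1 (-2.18, 0.00397), Sox7 (-1.59, 0.000168) and Hnf4a (-1.03, 0.0157) had negative differences.

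In the same line 13 genes differed at DIV7 against EB8, beside 4.06% of all genes. The gut genes Aqp8 (-3.40, adjusted p = 0.00843), Ctsh (-3.28, 0.00049) and Gkn1 (-1.65, 0.0286) and the adaptor gene Dab2 (-2.88, 0.000766) had negative differences. So did the factors Gata6 (-2.0, 0.0119), Gata4 (-1.91, 0.0236), Sox17 (-1.89, 0.0442), Foxa2 (-1.42, 0.0115) and Foxa1 (-1.35, 0.00845), with Nepn (-1.61, 9.28e-06) and Krt8 (-2.13, 0.0441). Amn (1.50, 0.00248) and Trf (1.18, 0.012) had positive ones. Without DIV7 WT A or without EB8 WT B 5 genes differed, and without DIV7 Puf60_pEx5_HOM B 8.

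In Puf60_mEx5_HOM the step of Foxa2 at EB8 against ESC differed by -1.31 (adjusted p = 0.0312, beside 1.36% of all genes) and that of Sox7 at DIV7 against EB8 by -1.32 (0.00566, beside 0.861%). At DIV7 against EB8 the step of Nepn differed by -1.18 in Puf60_pEx5_HET (0.00213) and by -1.40 in Rbm38KO (0.000191), each beside 0.0359% of all genes.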

How the results depend on the processing

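Of 2108 values under the alternatives of the 172 gene changes called in the main analysis, 1872 kept direction and side of the threshold, 236 kept direction only (173 of them among 796 that leave out 1 library) and 0 turned; genes without a call did change sign under other scalings, up to 6 of the 28 in a comparison. Scaling to total reads gave 4 calls in Puf60_pEx5_HET at EB8, 4 between the homozygous lines at ESC and 2 for the Puf60_mEx5_HOM step to EB8, and calls higher in WT at EB8 against ESC made up 74.1% of all calls, against 54.3%. Quantile scaling gave 2 for the Puf60_mEx5_HOM step to DIV7. A pseudocount of 0.5 gave 4 in Puf60_pEx5_HET at EB8, 0 in Puf60_mEx5_HOM at DIV7 and 2 for the Puf60_mEx5_HOM step to EB8, which was 0 with no filter or one of 5 CPM. The 5 CPM filter, which tests fewer genes, gave 7 in Puf60_pEx5_HET and 3 in Rbm38KO at DIV7, and 0 for their steps to DIV7. Fits to the compared stages alone gave 0 in Puf60_mEx5_HOM, 1 in Puf60_pEx5_HET and 0 in Rbm38KO at DIV7, 3 between the homozygous lines at ESC, 8 for the Puf60_mEx5_HOM step to EB8, and 2 and 0 for the Puf60_pEx5_HET steps to EB8 and DIV7. With 20 reads required, 1 exon comparison was called at ESC and 1 at EB8. The cause of these shifts was not tested.

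Same-lettered libraries deviated together in 10 of 10 pairs of groups at ESC, 5 of 10 at EB8 and 4 of 10 at DIV7. The labels do not say what a letter marks, so the letters were not used as pairs, although at ESC the data hint at pairing. The replicate block gave 3 calls between the homozygous lines at ESC and 1 exon comparison at ESC, and moved no other count by over 1.5 times.

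Leaving out 1 library gave 0 to 3 calls in Puf60_pEx5_HOM at ESC and 0 to 1 between the homozygous lines, with 0 in the other lines. At EB8 it gave 2 to 9 in Puf60_mEx5_HOM, 3 to 5 in Puf60_pEx5_HOM, 0 to 3 in Puf60_pEx5_HET, 0 in Rbm38KO and 12 to 15 between the homozygous lines. At DIV7 it gave 0 to 8, 11 to 15, 2 to 13, 1 to 12 and 11 to 14 in the same order. WT steps had 20 to 22 (EB8 against ESC), 15 to 20 (DIV7 against EB8) and 22 to 24 calls (DIV7 against ESC). Line steps to EB8 and DIV7 had 0 to 3 and 1 to 2 in Puf60_mEx5_HOM, 6 to 10 and 5 to 16 in Puf60_pEx5_HOM, 0 and 1 in Puf60_pEx5_HET, and 0 and 1 to 4 in Rbm38KO. WT exon steps had 1 to 3 calls. With 2 libraries per group, genes near 1 CPM and exons with few reads limit what can be seen.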
